A study of Homo sapiens with 4 samples.

Results

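The BCL2 family was examined as 10 member genes that were picked by name, which were 3 anti-apoptotic genes (BCL2, BCL2L1 and MCL1), 2 effectors (BAX and BAK1) and 5 BH3-only genes (BCL2L11, BID, PMAIP1, BBC3 and BMF). The members were found through the RefSeq accession that the array design gives for each probe, which matched 20 of the 23680 probes that could be named and all 10 genes out of 16422. Every one of the 10 genes and 20 probes passed the filter of a processed signal of at least 100 on at least 1 array, and 12159 named genes did so in all. Total RNA was hybridised to 1 Agilent whole-genome oligonucleotide array for each of 4 samples. SkBr3 and BT474 are human breast cancer cell lines that carry extra copies of the receptor gene ERBB2 (HER2) and depend on it for growth. Lapatinib is a small-molecule inhibitor of the kinases of HER2 and EGFR. The 4 groups were parental SkBr3 cells and parental BT474 cells, both labelled as vehicle, and the resistant lines SkBr3/Lap and BT474/Lap. These lines had been selected with rising lapatinib concentrations up to 1 μM. For protein blots the paper kept them in 1 μM lapatinib, and it does not say whether the array cultures were. Drug exposure at harvest and selected resistance therefore cannot be told apart. Each resistant line was a single clone, and the sample labels and the paper number the clones the other way round, so the names SkBr3/Lap and BT474/Lap are used here. With 1 array in each group there was no replicate check on any difference between a clone and its parent, and a change of 2-fold or more was used as a description rather than as a test. In RNA from a whole culture, fewer cells with a transcript and less of it per cell cannot be told apart.

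Proteins of the BCL2 family decide whether the outer membrane of the mitochondrion stays sealed. BAX and BAK1 form pores in it that release cytochrome c, which assembles the apoptosome with APAF1 and activates caspase-9. BCL2, BCL2L1 (BCL-XL) and MCL1 hold the effectors back, and the BH3-only proteins bind and neutralise these guardians or engage the effectors directly. In HER2-dependent breast cancer cells, BCL2L11 (BIM) is known to be held down by ERK signalling, and its release is a recognised step in cell death after HER2 kinase inhibition.

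The members at least 2-fold away from their parent in a clone were PMAIP1 in SkBr3/Lap and BCL2 and BAX in BT474/Lap, and the 250 bases before the transcription start of these 3 genes are shown to give the regulatory context of the differences described further on. The sequences are those of RefSeq on GRCh38.p14, 5′ to 3′ on the strand of the gene, and capitals mark matches to the E-box core CACGTG or to the core of the cAMP response element, TGACGT, on either strand. The BCL2 window is chr18:63319770-63320019 on the minus strand, the BAX window chr19:48954625-48954874 on the plus strand and the PMAIP1 window chr18:59899746-59899995 on the plus strand.
BCL2: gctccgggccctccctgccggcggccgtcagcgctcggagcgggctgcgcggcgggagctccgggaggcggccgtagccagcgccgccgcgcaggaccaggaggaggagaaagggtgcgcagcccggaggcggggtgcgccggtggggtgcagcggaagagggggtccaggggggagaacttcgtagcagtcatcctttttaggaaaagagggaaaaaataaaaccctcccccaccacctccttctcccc
BAX: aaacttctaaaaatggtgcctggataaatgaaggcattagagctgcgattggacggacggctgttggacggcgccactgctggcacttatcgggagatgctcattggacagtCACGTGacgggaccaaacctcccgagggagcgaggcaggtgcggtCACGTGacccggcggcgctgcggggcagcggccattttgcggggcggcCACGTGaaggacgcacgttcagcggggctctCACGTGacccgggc
PMAIP1: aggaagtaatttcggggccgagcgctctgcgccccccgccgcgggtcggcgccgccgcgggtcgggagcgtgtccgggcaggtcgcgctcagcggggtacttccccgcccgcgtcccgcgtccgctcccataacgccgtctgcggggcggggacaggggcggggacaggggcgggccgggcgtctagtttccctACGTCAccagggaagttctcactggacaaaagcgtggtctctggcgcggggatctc
The BAX window held 4 E-box cores, and 6.34% of the 35116 promoter windows of the same length in the RefSeq table held at least 1. The E-box was added to the search after the BAX window had been seen, so its match there was known beforehand. Among members that were not past 2-fold, the BBC3 window held 1 E-box core and 2 of the windows listed for BID held 1 each. The PMAIP1 window held 1 match to the core of the cAMP response element, the letters to which ATF and CREB factors bind, at position -56 from the start site, and 7.10% of windows held one. Neither core was found in the BCL2 window. Since NF-κB was the factor of interest in the study, 2 κB patterns (GGG, any 2 bases and then TTTCC or TTCCC) were also searched on both strands, and neither occurred in a window of any member in the table. Only 1.73% and 1.97% of all windows held them, so their absence from so few windows does not set the members apart. The 2 patterns are narrow and the windows short, and the paper names Bcl-2 as a direct target of NF-κB. MCL1 had no entry in that table. A FOXO core, GTAAACA, was found once in the BCL2L11 window (2.98% of all windows). A loose p53 pattern, CNNG followed after 6 bases by CNNG again, occurred in 68.6% of all windows and so separated little. A match gives letters and not occupancy.

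Values are given as processed signals, an intensity in arbitrary units, and as scaled levels, the log2 processed signal minus the 75th percentile of the log2 signals of that array. The unscaled 75th percentile was 1115 in parental SkBr3, 2074 in its clone SkBr3/Lap, 1158 in parental BT474 and 1681 in BT474/Lap, and 66.6% to 74.0% of probes were well above background on an array. A single slide carried 3 of the arrays and a separate one carried SkBr3/Lap, so that in every SkBr3/Lap comparison slide and resistance cannot be told apart. Of 7 luminal markers fixed for these lines (ERBB2, GRB7, KRT8, KRT18, KRT19, EPCAM and CDH1), 7 were well above background on both BT474 arrays and 6 on both SkBr3 arrays, where CDH1 was not. In SkBr3/Lap ERBB2 (-1.90, and -2.02 by its other probe) and GRB7 (-1.19) were at least 2-fold lower, against 13.0% of all named genes. In BT474/Lap they were at -0.65 (-0.26 by the other ERBB2 probe) and -0.19, and 0 of the list were called. Every luminal marker with a value lay below its parent in both clones by the probe that stands for it. Of 4 leukocyte markers, CD79A, CD3E and CD14 were well above background on every array, with summed signals of the list between 1244 and 2056, and PTPRC, the pan-leukocyte marker, was on none. The CD3E probe that stands for the gene was higher in SkBr3/Lap (1.04) and its other probe was not (-0.12). Of 4 fibroblast markers only COL3A1 in SkBr3/Lap was above background, with a signal of 347. The summed signal of the endothelial markers PECAM1, VWF and CDH5 was 181 in parental SkBr3, 1395 in its clone SkBr3/Lap, 905 in parental BT474 and 658 in BT474/Lap. Neither these sums nor those of the leukocyte markers were scaled, so they also carry the differences in brightness between arrays given above. The part of these transcripts in the results that follow was not tested.

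Among the 10 members, 1 gene was at least 2-fold higher in SkBr3/Lap than in SkBr3 and 0 were lower, where 13.5% and 13.0% of all named genes with sufficient signal were called higher and lower. BCL2 could not be compared in that pair because it was not well above background in either sample. In BT474/Lap, 2 members were at least 2-fold higher than in BT474 and 0 were lower, against 8.60% and 5.15% of all named genes. Counts of 1 and 2 out of 10 are too small to set the family apart from the array. The median log2 fold change of the members was -0.26 in SkBr3/Lap over 9 genes and 0.09 in BT474/Lap over 10, beside medians of -0.05 and -0.08 over all named genes. No member was called in both clones.

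**Figure D1:**
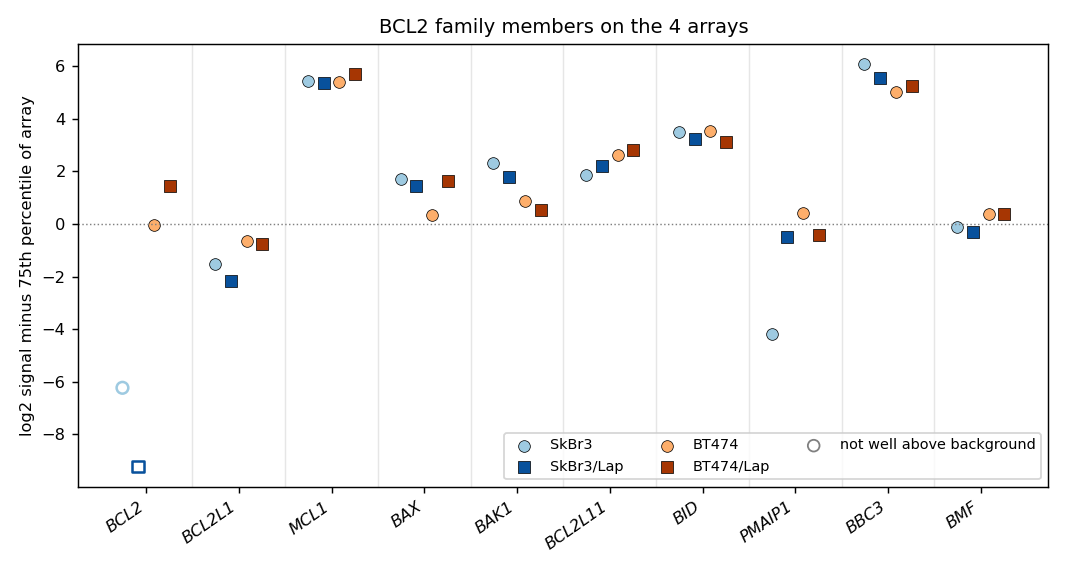
Scaled log2 level of each member on the 4 arrays, with circles for parental cells, squares for resistant clones and open symbols where the probe was not well above background; 1 probe stands for each gene, and levels can be compared within a gene but not between genes. BCL2 separates the 2 cell lines, PMAIP1 is low in parental SkBr3 alone (-4.19) and BAX is lowest in parental BT474 (0.34).

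**Figure D2:**
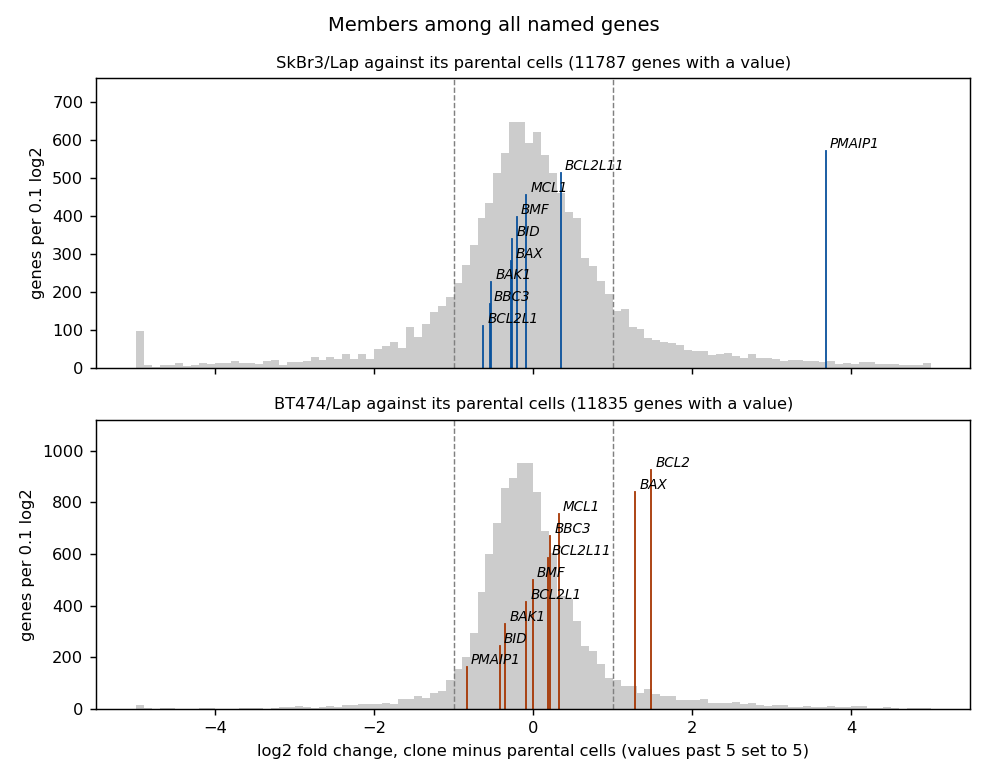
Log2 fold changes of all named genes (grey bars, genes per 0.1 log2 units) with the members drawn as vertical lines whose height only spaces the names, SkBr3/Lap above and BT474/Lap below, and dashed lines at 2-fold. PMAIP1 lies far out in SkBr3/Lap (3.68), BCL2 (1.49) and BAX (1.28) lie past 2-fold in BT474/Lap, and the other members lie within the bulk of genes.

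BCL2, the founding anti-apoptotic member and an oestrogen-responsive gene in luminal breast cancer, was measurable in the BT474 samples and not in the SkBr3 samples. Its single probe had processed signals of 14.8 in parental SkBr3, 3.47 in its clone SkBr3/Lap, 1121 in parental BT474 and 4555 in BT474/Lap. The lowest signal called well above background was 16.01 on the SkBr3 array and 13.3 on the SkBr3/Lap array, so both SkBr3 values were below what the arrays could measure, with 1 of 10 spots well above background in SkBr3 and 0 of 10 in SkBr3/Lap. Parental BT474 was at least 67.4-fold above parental SkBr3, and BT474/Lap at least 423-fold above SkBr3/Lap. In BT474/Lap the scaled level was 1.44 against -0.05 in BT474, a 2.80-fold higher level (log2 fold change 1.49). The probe was spotted 10 times on each array, and the SD between spots was 0.05 on both BT474 arrays, so this difference was far larger than the spread within an array. That spread leaves out culture and labelling.

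BCL2L1, which encodes BCL-XL, was measured on all 4 arrays and was lower in SkBr3/Lap by a margin on which its 2 probes differed. The brighter probe, which stands for the gene, had scaled levels of -1.54 in parental SkBr3, -2.17 in its clone SkBr3/Lap, -0.66 in parental BT474 and -0.75 in BT474/Lap. The log2 fold change was -0.63 for SkBr3/Lap and -0.09 for BT474/Lap, and the SD over its 10 spots was at most 0.08 on any array. The dimmer probe, with signals of 48.4 in parental SkBr3, 32.2 in its clone SkBr3/Lap, 87.4 in parental BT474 and 117 in BT474/Lap, gave -1.48, a 2.79-fold lower level, and -0.12. Both probes thus put SkBr3/Lap below its parent and both put it lowest of the 4 samples, while neither separated BT474/Lap from BT474 by more than 0.12.

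MCL1, a short-lived anti-apoptotic protein that is bound by PMAIP1, was the anti-apoptotic member whose brightest probe differed least from the parent in SkBr3/Lap. That probe had signals of 48015 in parental SkBr3, 84244 in its clone SkBr3/Lap, 48245 in parental BT474 and 87434 in BT474/Lap, and after scaling the log2 fold changes were -0.08 and 0.32. A further probe gave 0.23 and 0.50. The dimmest of the 3, with scaled levels of -0.84 in parental SkBr3, 0.13 in its clone SkBr3/Lap, 0.29 in parental BT474 and -0.54 in BT474/Lap, gave 0.96 and -0.83. The range between the MCL1 probes was 1.05 in SkBr3/Lap and 1.33 in BT474/Lap, beside a median range of 0.29 and 0.28 over all genes with at least 2 probes, and in both clones the probes differed in sign. A direction for MCL1 could therefore not be given in either clone.

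BAX, the effector that is recruited from the cytosol to mitochondria, was higher in BT474/Lap than in BT474 and was the one effector past 2-fold. The probe that stands for it had scaled levels of 1.70 in parental SkBr3, 1.42 in its clone SkBr3/Lap, 0.34 in parental BT474 and 1.62 in BT474/Lap, and the SD over 10 spots was between 0.04 and 0.06. Parental BT474 was thus the low sample, and BT474/Lap lay within the range of the SkBr3 samples. The log2 fold change was 1.28 in BT474/Lap (2.43-fold higher) and -0.28 in SkBr3/Lap. The second probe gave the same directions, 0.96 in BT474/Lap, just short of 2-fold, and -0.77 in SkBr3/Lap.

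BAK1, the effector that resides in the mitochondrial membrane, was slightly below the parent in both clones and past 2-fold in neither. Its single probe had scaled levels of 2.30 in parental SkBr3, 1.77 in its clone SkBr3/Lap, 0.86 in parental BT474 and 0.51 in BT474/Lap. The log2 fold changes were -0.53 and -0.35. The 2 SkBr3 samples lay above the 2 BT474 samples, and BAK1 in parental BT474 was 2.70-fold below parental SkBr3. In BT474/Lap the 2 effectors therefore lay on opposite sides of their parent.

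**Figure D3:**
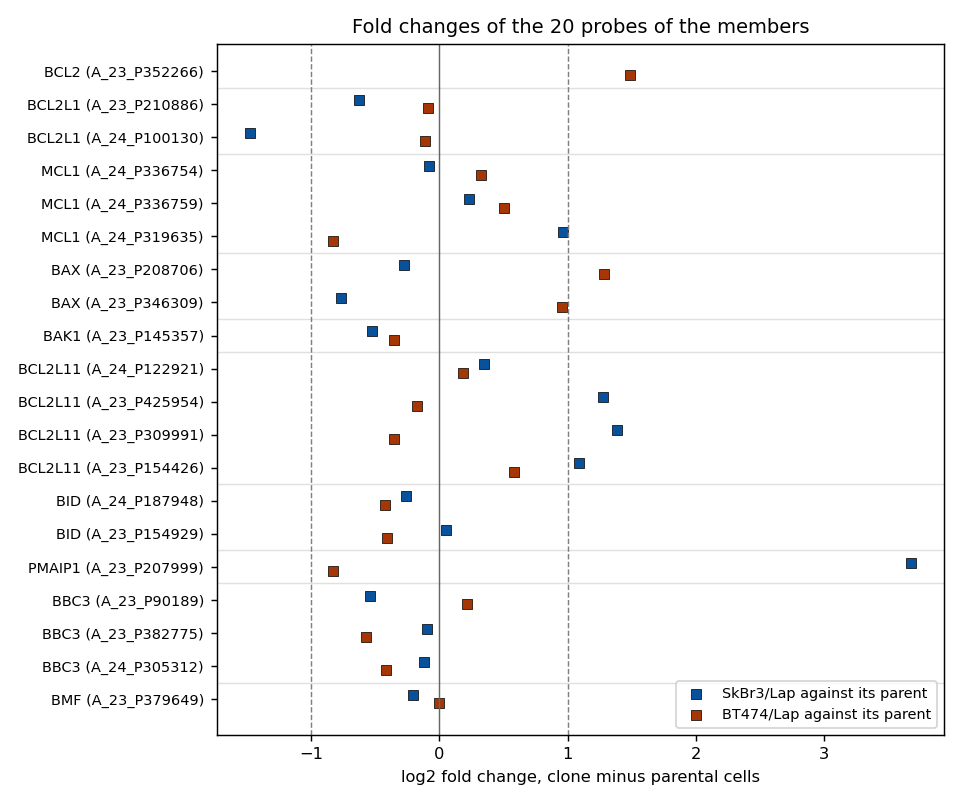
Log2 fold change of each of the 20 probes of the members, SkBr3/Lap minus SkBr3 (blue) and BT474/Lap minus BT474 (brown), with dashed lines at 2-fold; the BCL2 probe has no blue point because it was not well above background in either SkBr3 sample. The BCL2L11 probes lie past 2-fold in SkBr3/Lap except the brightest, at 0.35, and the MCL1 probes scatter on both sides of 0.

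Counted by probe, 4 of the 20 were at least 2-fold higher in SkBr3/Lap and 1 was lower, against 12.3% and 14.1% of all 25927 probes with sufficient signal. The 4 were the PMAIP1 probe and 3 of BCL2L11, and the lower one was the dimmer probe of BCL2L1. In BT474/Lap 2 were higher and 0 lower, against 9.68% and 4.88%. Probes of 1 gene share its transcript and are not replicates of the condition.

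BCL2L11 encodes BIM, which binds all of the anti-apoptotic proteins. All 4 of its probes were higher in SkBr3/Lap than in SkBr3, but by different amounts. The brightest, which stands for the gene, had signals of 3997 in parental SkBr3, 9479 in its clone SkBr3/Lap, 7110 in parental BT474 and 11737 in BT474/Lap, with log2 fold changes of 0.35 and 0.19. The other 3 gave 1.27, 1.39 and 1.09 in SkBr3/Lap, that is 2.42-fold, 2.62-fold and 2.13-fold higher levels. These 3 were dim in the parent, with SkBr3 signals of 82.3, 49.1 and 29.8, all marked well above background. In BT474/Lap the same 3 gave -0.17, -0.36 and 0.58, and the 4 probes did not share a sign. The design assigns all 4 probes to the same RefSeq transcript, so the files do not show which isoforms each detects, and the size of the BCL2L11 difference in SkBr3/Lap rested on the probe that was read.

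PMAIP1, which encodes NOXA, a BH3-only protein that binds mainly MCL1 and is a textbook target of p53 and of the stress factor ATF4, had the largest fold change of any member. Its processed signals were 61.2 in parental SkBr3, 1463 in its clone SkBr3/Lap, 1541 in parental BT474 and 1254 in BT474/Lap. Parental SkBr3 was the only low sample, and its signal was still well above background on 10 of 10 spots. The scaled levels of the 4 samples were -4.19, -0.50, 0.41 and -0.42 in the same order, and the SD over 10 spots was at most 0.14. PMAIP1 was 12.8-fold higher in SkBr3/Lap than in SkBr3 (log2 fold change 3.68), and its level there differed from that in BT474/Lap by only 0.08. In BT474/Lap the log2 fold change was -0.83, a 1.78-fold lower level that did not pass the threshold. The parental lines differed 24.2-fold in PMAIP1, which was more than SkBr3/Lap differed from its parent.

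**Figure D4:**
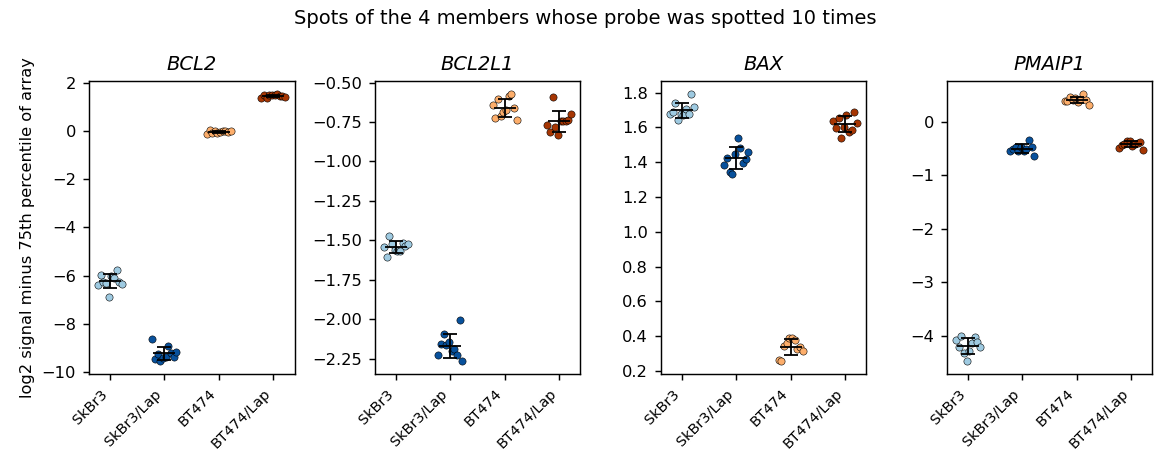
Scaled log2 level of each of the 10 spots of the BCL2, BCL2L1, BAX and PMAIP1 probes on each array, with the mean and SD over spots as bars; each panel has its own axis, and the spots show the spread within 1 array and not between cultures. The spots of parental SkBr3 lie below all others for PMAIP1 and those of parental BT474 below all others for BAX, while both SkBr3 arrays lie under the measurable range for BCL2.

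BBC3 encodes PUMA, a further p53 target that binds all anti-apoptotic members. None of its 3 probes passed 2-fold in either clone. The brightest had scaled levels of 6.07 in parental SkBr3, 5.53 in its clone SkBr3/Lap, 5.01 in parental BT474 and 5.23 in BT474/Lap, with log2 fold changes of -0.54 and 0.22. The other 2 probes gave -0.10 and -0.12 in SkBr3/Lap and -0.58 and -0.42 in BT474/Lap. In the parents the probes were at odds, since the brightest was 2.09-fold lower in BT474 than in SkBr3 while the other 2 were 4.85-fold and 3.21-fold higher. No direction can be given for BBC3 between the cell lines.

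BID, which links death receptors to mitochondria once caspase-8 has cleaved it, differed little. Its brighter probe had scaled levels of 3.49 in parental SkBr3, 3.23 in its clone SkBr3/Lap, 3.55 in parental BT474 and 3.12 in BT474/Lap, with log2 fold changes of -0.26 and -0.42, and the other probe gave 0.05 and -0.41. The 2 probes were within 0.01 of each other in BT474/Lap. BMF, a BH3-only protein that is released from the cytoskeleton under stress, had scaled levels of -0.12 in parental SkBr3, -0.33 in its clone SkBr3/Lap, 0.37 in parental BT474 and 0.36 in BT474/Lap. Its fold changes of -0.21 and -0.00 were the smallest of the BH3-only genes in size taken over both clones.

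Between the parental lines, 2 members (BCL2 and PMAIP1) were at least 2-fold higher in BT474 and 3 (BAX, BAK1 and BBC3, the last with the disagreement between probes given above) were lower, beside 19.0% and 18.7% of all named genes. The differences of PMAIP1 in SkBr3/Lap and of BAX in BT474/Lap each went towards the level of the other line, and that of BCL2 in BT474/Lap went away from it. For PMAIP1 the clone and the other line were both set against the single array of parental SkBr3, and for BAX against that of parental BT474. A low reading on that array alone and a lower level in those cells cannot be told apart.

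A change shared by both clones could be examined with limma over all 4 arrays with the cell line as a block, which left 1 residual degree of freedom. The adjusted p was 1 for each of the 20 member probes, and 0 of 25927 probes passed 0.05 after Benjamini-Hochberg adjustment (limma), with 900 (3.47%) at an unadjusted p under 0.05. The smallest unadjusted p among member probes was 0.138, for the dimmest BCL2L11 probe. The fit used the signals as given, so for BCL2 it took in both SkBr3 values although neither was well above background. With so few arrays a missing call does not show that the members were alike in clones and parents.

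The rest of the family was described in the same way from 13 further genes, of which 12 were on the array and 11 passed the signal filter. In SkBr3/Lap 1 of the 11 was at least 2-fold higher and 1 lower, and in BT474/Lap 0 were higher and 1 lower. Over all named genes 13.5% were higher and 13.0% lower in SkBr3/Lap, and 8.60% and 5.15% in BT474/Lap. The higher gene was BOK, an effector relative of BAX, with signals of 766 in parental SkBr3, 4868 in its clone SkBr3/Lap, 2508 in parental BT474 and 2861 in BT474/Lap and log2 fold changes of 1.77 and -0.35. BCL2L2, which encodes the anti-apoptotic BCL-W, was lower in SkBr3/Lap (-1.18) and close to its parent in BT474/Lap (0.30). BCL2L14 was lower in BT474/Lap (-1.26), and in SkBr3/Lap it was at least 1.86-fold higher than in SkBr3, where it was not well above background.

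Among the others, the gene nearest to 2-fold lower in SkBr3/Lap was BAD (-0.96), the BH3-only protein that survival kinases inactivate by phosphorylation, and BCL2L13 was higher by 0.84. BIK, a BH3-only protein of the endoplasmic reticulum, was lower by a log2 fold change of -0.97 in BT474/Lap, and BNIP3L was higher there by 0.25. The medians of the 11 genes were -0.22 in SkBr3/Lap and -0.29 in BT474/Lap.

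HRK showed how far probes of one gene could differ. The probe that stands for it gave -0.22 and -0.32. Its other probe had signals of 3.99 in parental SkBr3, 385 in its clone SkBr3/Lap, 527 in parental BT474 and 385 in BT474/Lap. By that probe HRK was at least 12.9-fold higher in SkBr3/Lap, since it was not well above background in SkBr3, and lower in BT474/Lap by a log2 fold change of -0.99. HRK was singled out after its values were seen.

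Downstream of the effectors, 13 genes of the mitochondrial death pathway were all measured, and they were counted by the probe that stands for each gene. In SkBr3/Lap 0 were at least 2-fold higher and 1 was lower, against 13.5% and 13.0% of all named genes. In BT474/Lap none passed in either direction, against 8.60% and 5.15%. The lower gene was APAF1, the scaffold of the apoptosome, with signals of 118 in parental SkBr3, 55.8 in its clone SkBr3/Lap, 92.5 in parental BT474 and 185 in BT474/Lap and log2 fold changes of -1.97 and 0.46. CYCS, which encodes cytochrome c, was at -0.29 in SkBr3/Lap by its brightest probe. Its dimmer probes gave -1.63 and -1.80 there, past 2-fold, so its probes differed in size. CASP9, the caspase that APAF1 activates, was at 0.66 in SkBr3/Lap, and DIABLO, which relieves caspases of their inhibitors, at 0.62. VDAC2, a channel that holds BAK1 at the membrane, had the lowest value of the list in BT474/Lap (-0.67), followed by AIFM1 (-0.54). The medians of the list were 0.03 in SkBr3/Lap and -0.27 in BT474/Lap.

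Because PMAIP1, BBC3 and BAX are known p53 targets, 20 other p53 targets were read beside them, and 18 passed the signal filter. In SkBr3/Lap 5 of the 18 were at least 2-fold higher and 3 lower, and in BT474/Lap 0 were higher and 4 lower, with medians of 0.05 and 0.06. The shares over all named genes were 13.5% higher and 13.0% lower in SkBr3/Lap, and 8.60% and 5.15% in BT474/Lap. GDF15, a stress-induced cytokine, had signals of 2378 in parental SkBr3, 84968 in its clone SkBr3/Lap, 24127 in parental BT474 and 556 in BT474/Lap. It was thus higher in SkBr3/Lap (4.26) and lower in BT474/Lap (-5.98), the same pair of signs as PMAIP1. By the probe that stands for each gene, GDF15 and AEN (1.17 and -1.20) were the 2 of the list past 2-fold in these opposite directions. Of all named genes 1.02% were.

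Some other p53 targets had other patterns. ZMAT3, which binds RNA, was higher in SkBr3/Lap (2.02) and at 0.57 in BT474/Lap, whereas TP53INP1 (-2.36) and RRM2B (-1.73) were lower in SkBr3/Lap and at -0.02 and 0.63 in BT474/Lap. TNFRSF10B, the death receptor DR5, was at 0.96 in SkBr3/Lap and -1.93 in BT474/Lap. Its other probe gave 1.83 and -1.70, past 2-fold in opposite directions as for GDF15 and AEN. The list therefore held genes on both sides of their parent in SkBr3/Lap, and BBC3 was on the lower side there.

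**Figure D5:**
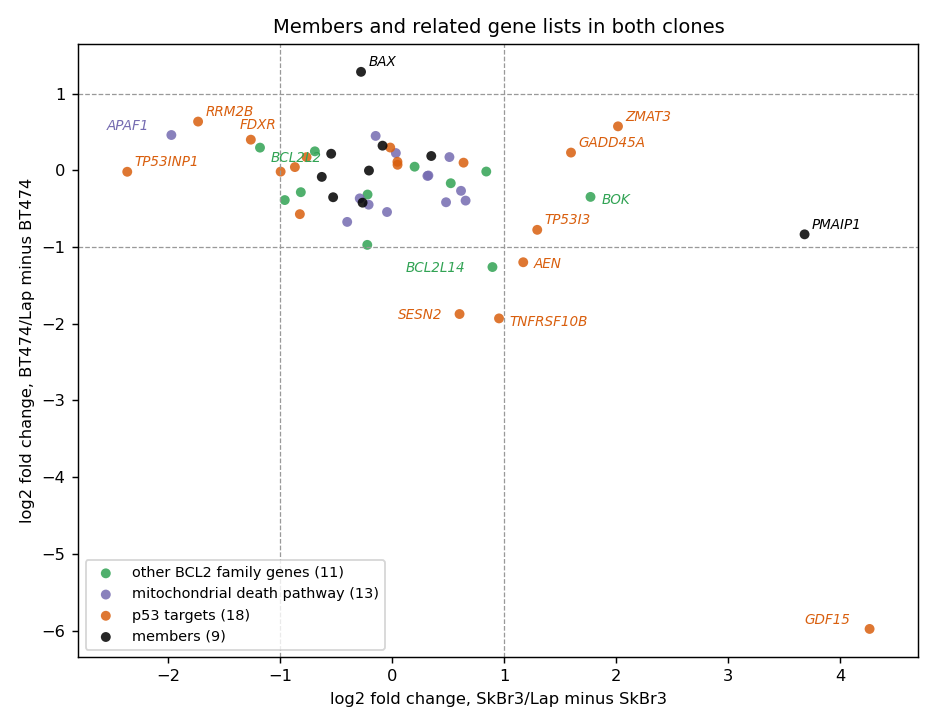
Log2 fold change in SkBr3/Lap (horizontal) against that in BT474/Lap (vertical) for 9 members and for the genes of 3 related lists, with dashed lines at 2-fold and names for genes past it in at least 1 clone; BCL2 is absent because it has no value in SkBr3/Lap, and the SkBr3/Lap value of BCL2L14 is a lower limit. PMAIP1 and GDF15 lie at the lower right, BAX at the top centre, and no gene lies past 2-fold in the same direction in both clones.

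Of 14 transcription factors known to control members, 13 passed the filter. In SkBr3/Lap 4 were at least 2-fold higher and 0 lower, with a median of 0.80, and in BT474/Lap 1 was higher and 2 lower, with a median of 0.05. All named genes had shares of 13.5% and 13.0% with a median of -0.05 in SkBr3/Lap. In BT474/Lap they had 8.60% and 5.15% with a median of -0.08. STAT5A (2.12) and JUN (1.37) were the highest in SkBr3/Lap, and FOXO3, which drives BCL2L11, had the lowest value there (-0.70). By the probe that stands for it, ATF4 transcript was nearly level in SkBr3/Lap (0.03) and at -0.77 in BT474/Lap. Its other probe gave 0.52 and -0.99. The part of ATF4 in the PMAIP1 differences was not tested. In BT474/Lap FOXO1 was higher (2.14), with signals of 560 in BT474 and 3576 in BT474/Lap, and FOXO4 was at 0.96. DDIT3, the stress factor CHOP, was lower in BT474/Lap (-2.11), with signals of 5858 in BT474 and 1973 in BT474/Lap, as was HIF1A (-1.10).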

How the data were processed

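Total RNA of 4 samples, 1 per group, was measured on 4 Agilent one-colour arrays. Per spot, the authors deposited a background-corrected intensity (the processed signal), median pixel intensities and flags, among them a yes-or-no mark for spots well above background. The file headers name Feature Extraction 10.1.1.1 and the Cy3 channel only, whereas the methods describe Cy3 or Cy5 labelling and another software version. The authors also deposited log2 values per probe, whose column medians were 0.12 for SkBr3, -0.20 for SkBr3/Lap, 0.11 for BT474 and -0.05 for BT474/Lap. Differences between clone and parent in that table were within a median of 0.0007 of those in the scaled levels, not of those in unscaled signals. Scale and direction are thus known, and arrays were already scaled there, but how each probe was centred is not stated.

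Log2 signals were averaged over the spots of each probe, and the 75th percentile of each array over 41000 probes was subtracted. Probes with a signal of at least 100 on at least 1 array were kept, and the kept probe with the highest mean log2 signal stood for a gene. A probe was well above background where this mark was set on 50% of its spots or more. Where 1 of 2 samples was not, the higher of its signal and the lowest signal well above background on that array was used and the fold change was a limit. The shared change was tested with limma 3.58.1 in R 4.3.3, after tests on simulated data. Members, gene lists and motifs were chosen with earlier results of these data known, and the E-box was added to the motifs after the BAX window had been seen. Flagged genes, AEN, HRK, ATF4, CYCS and VDAC1, and further genes past 2-fold in a figure, were named after their values were seen. All members were named, and of a list the genes called in both clones, otherwise the 2 highest and 2 lowest fold changes per clone. One gene that this rule would name is not reported here. Alternatives changed the scaling, background correction, filter, probe summary and threshold, and normexp was run on median pixel intensities because mean ones were not used here. The number of arrays limits the precision.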

Additional observations from a re-analysis of the deposited data

Results flagged for a closer look

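With 1 array per group, genes of the family were listed here where one clone was at least 2-fold from its parent and the other clone lay on the opposite side of its own. In none of them was the difference between the clones tested, and 1 of the 2 values can be small.

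BAX had a log2 fold change of 1.28 in BT474/Lap and -0.28 in SkBr3/Lap. Over 12 settings of the processing, the reported one included, the values ran from 1.08 to 1.39 and from -0.52 to -0.12. PMAIP1 had 3.68 for SkBr3/Lap and -0.83 for BT474/Lap, which ran from 2.93 to 3.84 and from -1.04 to -0.73.

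BCL2L2 had -1.18 for SkBr3/Lap and 0.30 for BT474/Lap, and BOK had 1.77 and -0.35. BCL2L14 had -1.26 in BT474/Lap and a lower limit of 0.90 in SkBr3/Lap, where its value ran from 0.27 with 16 added to the signal to 1.32 in the deposited log2 table. Each of the 5 genes kept both signs under every setting that gave a value for it. SkBr3/Lap was the one sample on its own slide, and the part of the slide in these differences was not tested.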

How the results depend on the processing

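By replicate number, no paired analysis was possible because each group held 1 array and all carried the same number. Clone and parent were paired by cell line in the limma fit. Leaving out an array removed the comparison of its own cell line and left that of the other line as it was. Over 12 settings, the reported one included, 13 of 19 member fold changes kept their sign. Those that did not were MCL1 in both clones and BCL2L1, BCL2L11, BBC3 and BMF in BT474/Lap, none of them 2-fold in either direction there. Scaling by the median moved the median of all genes in SkBr3/Lap from -0.05 to 0.11 and in BT474/Lap from -0.08 to -0.29, the share of called genes that were higher from 50.9% to 60.4% and from 62.6% to 45.8%, and made 1 member lower in BT474/Lap (PMAIP1, -1.04). With only probes well above background on all arrays, 1 member was higher in BT474/Lap, since BCL2 left the table, and at a threshold of 3-fold 0 were. With each gene as the mean of its probes, 2 members were higher in SkBr3/Lap (PMAIP1 and BCL2L11, 1.03) and 1 lower (BCL2L1, -1.05). With signals as given 1 was lower in SkBr3/Lap, namely BCL2, on signals under the background limit. The count of probes past an adjusted p of 0.05 (limma) was 0 without a block, with 308 at an unadjusted p under 0.05. It was also 0 with no signal filter, with 2043 of 41000 at an unadjusted p under 0.05. A fit with the slide as block could not examine a shared change. SkBr3/Lap was alone on its slide there and did not enter the estimate. The lowest signal well above background, 13.3 to 16.01 over the arrays, limits what can be said of BCL2 in SkBr3 cells.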

Other observations

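Of the endothelial markers, PECAM1 was called higher in both clones, at least 5.38-fold in SkBr3/Lap and at least 2.38-fold in BT474/Lap, and it was not well above background in either parent.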
